A study of Homo sapiens with 8 samples.

Results

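Human microvascular endothelial cells that had flown on the International Space Station were compared with the same cells kept on the ground, with both gravity levels of the flight pooled. The cells were HMEC-1, a single line of endothelial cells from small skin vessels, immortalised with a viral large T antigen, grown on gelatin-coated plastic in medium with 10% serum, hydrocortisone and epidermal growth factor at 37 °C. Of the 8 RNA-seq libraries, 5 came from flight: 3 from cells left weightless (space_microg) and 2 from cells spun at 1 g in the centrifuge of the onboard incubator (space_1g). The other 3 (ground) came from cells prepared at the same time, taken back to the home laboratory by airline and run there in a ground facility on the same schedule of activation and medium changes. Flight samples went up on 2 September 2015, were fixed in orbit with an RNA-protecting reagent, and came back on 12 September. The labels carry 1 protocol text for all libraries, in which samples were stored at 6 °C until processed, and give no separate fixation or storage for the ground. Launch, return, radiation and every other condition of the mission are therefore shared by all 5 flight libraries and by none of the ground libraries, and cannot be told apart. A gene was singled out when all 5 flight values lay on 1 side of all 3 ground values, whatever the gravity. This held for 612 of 16103 genes (3.8% of those tested), 253 with every flight value higher (1.57%) and 359 with every flight value lower (2.23%). With 5 against 3 libraries, the rule also singles out genes that do not differ between flight and ground. If every order of the 8 values were equally likely, it would single out a share close to the 3.8% found. How many of the 612 are such genes was not tested, so their number alone does not show an effect of flight.

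Endothelial cells line blood vessels and sense flow, hormones and lipids. Many of the genes named below belong to a few known circuits. Sterol regulatory element-binding proteins (SREBPs) are transcription factors held in the endoplasmic reticulum while sterols are plentiful; when sterols run low they move to the nucleus and switch on the enzymes that make cholesterol and fatty acids. Adenylyl cyclases make cyclic AMP, which tightens the endothelial barrier. RBM3 is an RNA-binding protein known for its induction by mild cold.

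In the listed genes the libraries held 24248964 to 35388757 reads. Values are deposited as read counts scaled to library size (scaled CPM), in which 1 read is worth 0.0285 to 0.0398, and the comparisons use log2(value + 1), a scale that understates the difference of low genes. Along the first principal component, which carried 61.9% of the variance, space_1g replicate 1 (-60.7) and ground replicate 3 (-64.7) lay far from the other 6 libraries (-1.51 to 31.1), so the widest difference between libraries was not that between flight and ground. Medians of gene lists are therefore also given without these libraries, as are the differences of named genes where they moved most. All 12 endothelial markers were in the table, with summed levels of 1394 to 2024 in flight and 1970 to 2355 on the ground. Markers of other cells gave overlapping sums. Fibroblast markers (6 of 11 in the table, without DCN, LUM and PDGFRA) summed to 115 to 334 in flight and 174 to 283 on the ground, keratinocyte and epithelial markers (8 of 14, without EPCAM, CDH1, KRT5 and KRT14) to 284 to 393 and 272 to 451, smooth muscle and pericyte markers (7 of 11, without MYH11 and CNN1) to 171 to 431 and 235 to 507, and the 1 of 11 leukocyte markers in the table to 1.04 to 2.89 and 1.04 to 1.87. The part of cell makeup in the differences was not tested. In bulk RNA, fewer cells of a type and less RNA per cell cannot be told apart.

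No single gene passed the test of flight against ground. limma, with Benjamini-Hochberg adjustment over all 16103 genes, called 0 genes (0%), and its smallest adjusted p was 1.00. Before adjustment, 608 genes (3.78%) had a p under 0.05, of which 245 were higher and 363 lower in flight and 371 were among the 612. Without any difference between the groups, a share of about 0.05 would be under that threshold, more than was found. The labels do not say that replicates were separate cultures, so every p measures only the spread between these libraries. On whole reads recovered from the deposited values, edgeR called 0 genes (0%) and had 588 at an unadjusted p under 0.05 (3.65%). DESeq2 called 13 genes (0.0828%) and had 742 at an unadjusted p under 0.05 (4.64%). All 13 were among the 612. Among the lower ones were ADCY4, FBLN5, MTMR9LP, GALT, LLGL2 and TPM2, and the higher ones were PIGL, SGMS1-AS1, RASSF8, RBM3, PTP4A1 and CCDC113. Differences below are log2 values of flight minus ground ± SE from limma and describe the libraries. A gene is called higher or lower there for the position of its values, not for a passed test. The rule and the fits use the same values, so a p printed beside a gene with separate groups is not independent evidence. Where an adjusted p from DESeq2 is printed below, neither limma nor edgeR called the gene with all 8 libraries.

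The differences were small for most of the 612 genes. The median was 0.34 among the higher genes and -0.40 among the lower, and differences beyond 1 were found in 1 higher gene, RBM3, and in 3 lower genes, among them ADCY4 and ITGA9. Between the nearest flight and ground values the gap was narrow, with a median of 0.063 for higher and 0.069 for lower genes on the same log2 scale. It reached 0.3 in 12 higher and 19 lower genes, with the widest in ADCY4 (0.61) and PIGL (0.56). At the edge of the rule, NOA1 was included with flight values from 30.928 upwards over a highest ground value of 30.923, and SEPT8 was not, with a highest flight value of 159.24 over a lowest ground value of 159.21. Of the 612 genes, 191 higher and 254 lower had a mean of at least 5 scaled CPM, and the genes described below come from these unless said otherwise. Counts of gene lists below are to be read against all genes, of which 3.8% had separate groups, 1.57% higher and 2.23% lower. All lists were chosen with earlier results of these data known, so their counts are not independent evidence. Over all genes, 7812 had a higher and 8291 a lower mean in flight.

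**Figure D1:**
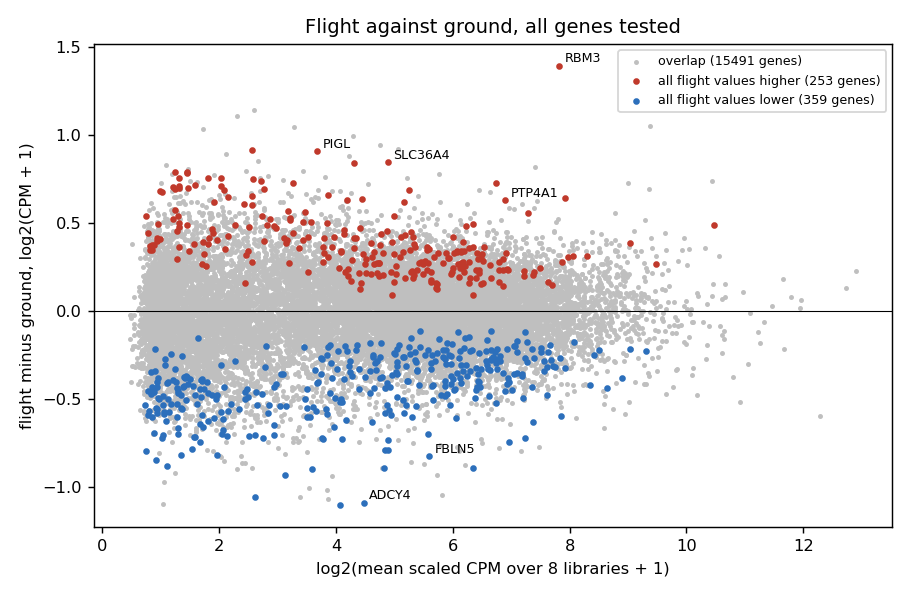
Flight minus ground on the log2(CPM + 1) scale (vertical) against the log2 of the mean scaled CPM over 8 libraries plus 1 (horizontal) for the 16103 genes tested, 1 point per gene. Red points are the 253 genes with every flight value higher, blue points the 359 with every flight value lower, and grey points the genes whose groups overlap; RBM3 at 1.40 and ADCY4 at -1.09 lie at the edges of the cloud, and most coloured points lie within the spread of the grey ones.

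Several genes of cholesterol supply, at different steps of the pathway, had every flight value lower. In a list of 27 measured genes of sterol supply, 8 had every flight value lower and 1 every flight value higher, which is 33.3% of the list against 3.8% of all genes. Of the 27, 19 had a lower mean and 8 a higher mean in flight, the median difference was -0.30 against -0.01 over all genes, and limma called 0. Without the libraries that stand apart the median was -0.41, and against the same ground libraries it was -0.17 for space_microg and -0.30 for space_1g. The list as a whole did not separate the groups. Its mean score, the mean deviation of its genes from their means over all libraries, was -0.25 to 0.07 in flight and -0.03 to 0.30 on the ground. Space_microg replicate 3 (0.07) lay above ground replicate 3 (-0.03). The list was chosen with earlier results of these data known, so its count describes it and is not independent evidence. The pathway's regulator comes first. SREBF2 encodes SREBP-2, the member of the SREBP family that drives cholesterol genes, and it had 132, 125 and 128 scaled CPM in space_microg, 129 and 133 in space_1g and 168, 181 and 153 on the ground. The flight values lay within a narrow band and the lowest ground value was above all of them. The difference was -0.37 ± 0.11 (limma, unadjusted p = 0.00634), and -0.25 after a trend on GC content and length was taken out of each library.

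Promoter sequences are shown for SREBF2 and for SCD, since SREBP and its partner NF-Y are known to bind promoters of this pathway, and each is the 250 bases before the gene's start on its own strand, from RefSeq on GRCh38.p14. The window of SREBF2 is chr22:41832855-41833104 (plus strand) and that of SCD is chr10:100346983-100347232 (plus strand). Capitals mark matches, on either strand, to TCACCCCAC, a core of the sterol regulatory element, and to CCAAT, the box bound by NF-Y, which reads ATTGG on the opposite strand.
SREBF2 promoter: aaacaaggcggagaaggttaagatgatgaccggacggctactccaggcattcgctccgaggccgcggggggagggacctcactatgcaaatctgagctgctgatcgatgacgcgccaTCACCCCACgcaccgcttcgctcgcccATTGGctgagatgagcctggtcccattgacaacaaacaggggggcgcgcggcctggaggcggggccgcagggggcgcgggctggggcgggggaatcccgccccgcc
SCD promoter: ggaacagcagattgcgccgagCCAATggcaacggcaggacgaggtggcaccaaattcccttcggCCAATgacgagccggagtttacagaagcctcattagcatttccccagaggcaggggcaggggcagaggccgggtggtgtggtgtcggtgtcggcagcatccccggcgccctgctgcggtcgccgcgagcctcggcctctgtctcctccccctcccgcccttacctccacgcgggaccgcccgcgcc
SREBF2 held the sterol element 133 to 125 bases before its start and a CCAAT box on the opposite strand 106 to 102 bases before it. SCD held CCAAT boxes 229 to 225 and 186 to 182 bases before its start and no match to the sterol element. Over all tested genes with an entry (10187 genes, 14894 starts), 0.336% of promoters held the sterol element and 32.8% a CCAAT box. Among the genes higher in flight the shares were 0.738% and 28.4%, and among those lower in flight 1.87% (6 of 321 promoters) and 36.4%; entries existed for 410 of the 612 genes. In the cholesterol and fatty acid lists together, 2 of 59 promoters (3.39%) held the sterol element and 32 (54.2%) a CCAAT box. Among the 11 promoters of their genes with separate groups, only that of SREBF2 held the sterol element, and 6 held a CCAAT box. Most promoters of these lists thus had no match to the element in this window. A match describes the letters of the window and not a bound site.

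Several enzymes along the route followed the same order of groups. SQLE, squalene epoxidase, which makes the first oxygen-carrying sterol precursor, had 57.8, 51.0 and 54.8 scaled CPM in space_microg, 52.1 and 45.9 in space_1g and 84.6, 74.6 and 69.2 on the ground. Its lowest value was in space_1g replicate 2, and the difference was -0.53 ± 0.13. CYP51A1, which removes a methyl group from lanosterol, had 116, 119 and 107 scaled CPM in space_microg, 106 and 101 in space_1g and 157, 145 and 127 on the ground, and differed by -0.38 ± 0.12. MVD, which makes isopentenyl diphosphate, differed by -0.54 ± 0.19, DHCR7, which completes cholesterol, by -0.58 ± 0.22, and FDFT1, squalene synthase, by -0.26 ± 0.12. GGPS1, which turns the same isoprenoid precursors towards protein prenylation, had the opposite order, with 36.0 to 44.4 scaled CPM in flight and 30.0 to 33.5 on the ground and a difference of 0.35 ± 0.13. Other well-known targets overlapped between the groups: HMGCS1, an early enzyme of cholesterol synthesis, differed by -0.30 ± 0.27 and INSIG1, which holds SREBPs back, by -0.53 ± 0.28.

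In fatty acid synthesis, 2 of 23 measured genes had every flight value lower (8.7%) and 0 every flight value higher. Of these 23 genes, 18 had a lower mean in flight and the median difference was -0.13, or -0.10 without the libraries that stand apart. SCD, which puts the double bond into stearate, had 116, 105 and 89.5 scaled CPM in space_microg, 81.3 and 98.3 in space_1g and 181, 202 and 119.7 on the ground. Ground replicate 3 lay just above the highest flight library and ground replicates 1 and 2 far above it, so the size of the difference, -0.74 ± 0.19, rested on those replicates, and it was -0.90 without the libraries that stand apart. ACSS2, which makes acetyl-CoA from acetate, differed by -0.18 ± 0.11. FASN, fatty acid synthase, overlapped, with a difference of -0.46 ± 0.22.

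**Figure D2:**
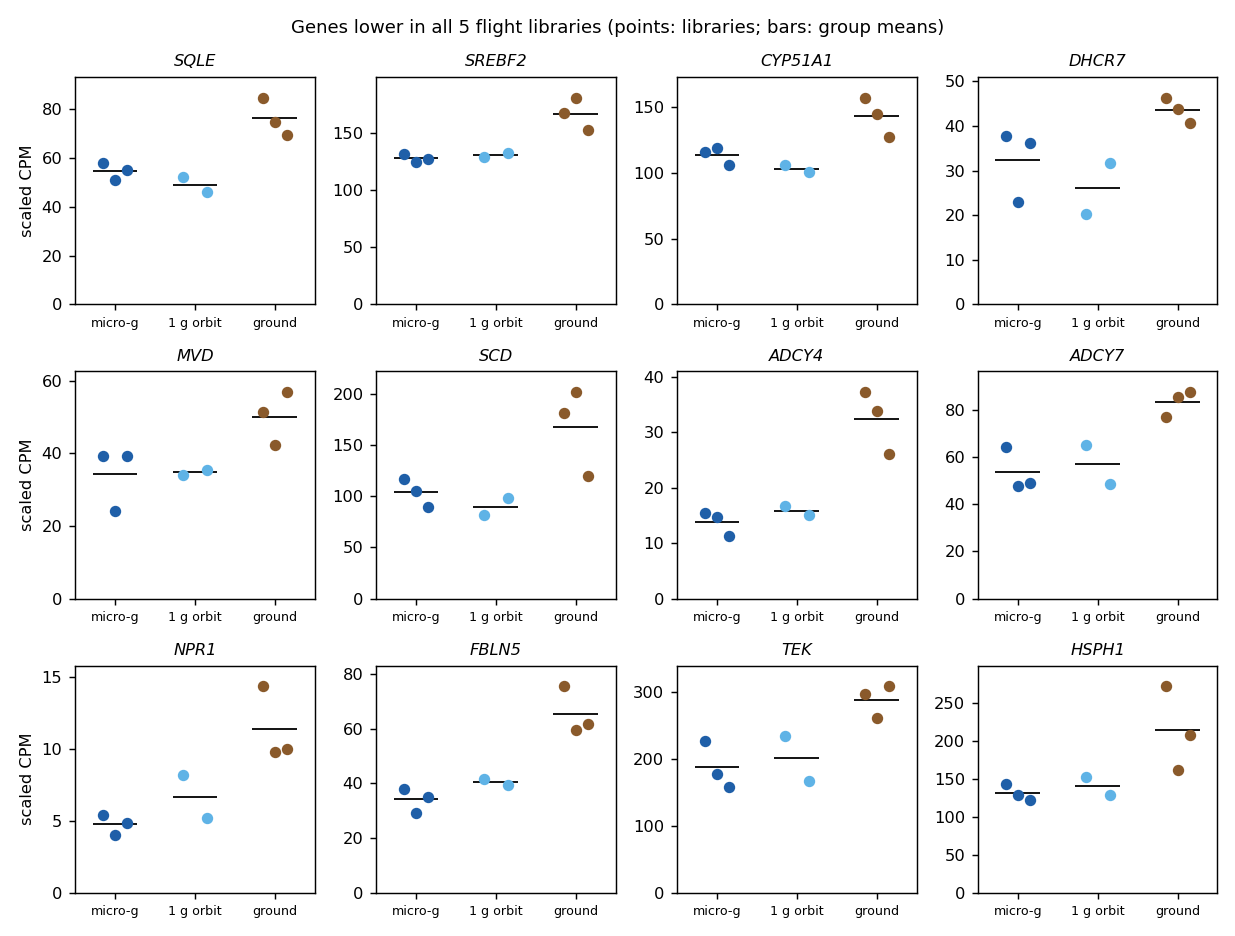
Scaled CPM (vertical, from 0) of 12 genes with every flight value lower, 1 panel per gene and 1 point per library, for space_microg (n = 3), space_1g (n = 2) and ground (n = 3), with bars at the group means. SQLE, ADCY4 and FBLN5 show both flight groups well below the ground libraries, whereas the lowest ground value of SCD lies close to the highest flight value.

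All 6 measured adenylyl cyclases, the enzymes that make cyclic AMP, had a lower mean in flight, and 4 of them had separate groups. Of 31 measured genes of cyclic AMP signalling, 4 had every flight value lower and 1 every flight value higher. This is 16.1% of the list, against 3.8% of all genes. The list was chosen with earlier results of these data known, and the cyclases were not a list of their own. These counts therefore describe the genes and are not independent evidence. The mean score of the list overlapped between the groups, with -0.12 to 0.06 in flight and 0.05 to 0.10 on the ground. All 4 lower genes were cyclases. ADCY4, an isoform stimulated by G protein beta-gamma subunits (chr14:24318349-24335093, minus strand), had 15.4, 14.7 and 11.3 scaled CPM in space_microg, 16.6 and 15 in space_1g and 37.2, 33.8 and 26.0 on the ground. No flight value exceeded 16.6 and no ground value fell below 26.0, the widest gap of any of the 612 genes. The difference was -1.09 ± 0.18 with the smallest unadjusted p of the whole limma fit (0.000134), and DESeq2 gave an adjusted p of 9.04e-05. After adjustment, neither limma nor edgeR (adjusted p = 0.999) called it with all 8 libraries. Without the libraries that stand apart the difference was -1.28.

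ADCY7 had 64.1, 47.5 and 48.8 scaled CPM in space_microg, 65.1 and 48.6 in space_1g and 77.1, 85.3 and 87.5 on the ground, with a difference of -0.61 ± 0.15. Its flight values fell into a higher pair, in space_microg replicate 1 and space_1g replicate 1, and 3 lower values, all below the ground. ADCY9 had 69.0, 56.4 and 61.1 scaled CPM in space_microg, 62.8 and 59.9 in space_1g and 81.6, 76.9 and 88.5 on the ground, with a difference of -0.41 ± 0.12. ADCY3 was barely separate, with 86.2 to 96.0 in flight and 97.7 to 106 on the ground and a difference of -0.16 ± 0.10, which was -0.05 with the trend on GC content and length removed. The other measured cyclases, ADCY1 and ADCY6, overlapped, with differences of -0.42 ± 0.36 and -0.10 ± 0.16. Downstream of the cyclases the values went either way or hardly differed. PRKAR2A, a regulatory subunit of protein kinase A, had every flight value higher (0.23 ± 0.11), while the catalytic subunits PRKACA (0.01 ± 0.15) and PRKACB (0.36 ± 0.24) overlapped. Over the 31 genes, 14 had a higher and 17 a lower mean in flight, with a median of -0.10 against -0.01 over all genes, or -0.08 without the libraries that stand apart.

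The promoter of ADCY4 is shown because its gap was the widest, at chr14:24335072-24335321 of GRCh38.p14 on the minus strand, again the 250 bases before the start from RefSeq. Capitals mark a CCAAT box on the opposite strand, 230 to 226 bases before the start.
ADCY4 promoter: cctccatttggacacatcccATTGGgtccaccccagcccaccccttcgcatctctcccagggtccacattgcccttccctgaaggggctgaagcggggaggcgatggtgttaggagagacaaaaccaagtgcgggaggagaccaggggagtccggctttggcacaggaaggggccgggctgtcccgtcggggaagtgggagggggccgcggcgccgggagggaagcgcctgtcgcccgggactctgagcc
The window held no match to the sterol element.

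NPR1, the receptor for atrial natriuretic peptide, makes the related messenger cyclic GMP in endothelial and smooth muscle cells. It had 5.38, 4.0 and 4.86 scaled CPM in space_microg, 8.16 and 5.21 in space_1g and 14.3, 9.76 and 9.99 on the ground. Space_1g replicate 1 was the highest flight library and still lay below every ground library; the difference was -0.93 ± 0.23.

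Among genes of the vessel wall and its matrix, FBLN5 had a wide gap and the others described here narrow gaps. FBLN5, fibulin-5, which helps tropoelastin assemble on elastic fibres and binds endothelial integrins (chr14:91869412-91947987, minus strand), had 37.9, 29.2 and 35.1 scaled CPM in space_microg, 41.6 and 39.2 in space_1g and 75.5, 59.4 and 61.6 on the ground. The highest flight value was 41.6 and the lowest ground value 59.4. The difference was -0.82 ± 0.15, with an adjusted p of 0.00475 in DESeq2. FBLN5 was the only 1 of 21 measured elastic fibre genes whose groups did not overlap (4.76%, near the 3.8% of all genes). The list's median was -0.09, or -0.03 without the libraries that stand apart. It changed sign, to 0.018, with the trend on GC content and length removed. FBN1, the fibrillin of microfibrils, had a difference of -0.03 ± 0.25, and LOX, which cross-links elastin, 0.23 ± 0.42.

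TIMP3, an inhibitor of matrix metalloproteinases that stays bound to the matrix, had 19.4, 17.7 and 20.3 scaled CPM in space_microg, 31.7 and 19.1 in space_1g and 44.2, 36.4 and 32.3 on the ground. Space_1g replicate 1 lay at 31.7, just below the lowest ground value of 32.3, while the other 4 flight libraries lay between 17.7 and 20.3; the difference was -0.79 ± 0.20, and -1.03 without the libraries that stand apart. Among 23 matrix proteases and inhibitors it was the 1 gene with separate groups (4.35%, near the 3.8% of all genes). Of the 23, 20 had a lower mean in flight (median -0.19, or -0.07 without the libraries that stand apart). The direction of that median rested on the ground libraries: it was 0.078 without ground replicate 3 and -0.42 without ground replicate 2. ITGA9, an integrin chain needed for lymphatic valves, had 11.3, 8.75 and 7.25 scaled CPM in space_microg, 15.5 and 10.0 in space_1g and 37.2, 20.3 and 16.2 on the ground, with a difference of -1.10 ± 0.30. The ground replicates of ITGA9 differed among themselves by more than the distance from the lowest of them to the flight values. LAMB2, a laminin chain of vessel basement membranes, differed by -0.38 ± 0.14 and LAMB3 by -0.25 ± 0.17 (-0.12 without the libraries that stand apart). Of 35 measured collagens and laminins, 2 had every flight value lower and 1 higher, 26 had a lower mean, and the median was -0.16, or -0.14 without the libraries that stand apart and -0.28 without ground replicate 2.

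Most genes of endothelial identity had a lower mean in flight, and few had separate groups. Of the 43 measured, 38 had a lower mean in flight and 5 a higher mean, with a median of -0.31 and of -0.40 without the libraries that stand apart. Only 3 of the 43 (6.98%, against 3.8% of all genes) had groups that did not overlap, all of them receptor tyrosine kinases. TEK, the angiopoietin receptor TIE2, had 228, 178 and 159 scaled CPM in space_microg, 235 and 167 in space_1g and 297, 261 and 309 on the ground, with a difference of -0.59 ± 0.16. KDR, the main VEGF receptor, differed by -0.50 ± 0.17 and TIE1, the partner of TEK, by -0.42 ± 0.19. In KDR and TEK the highest flight value was that of space_1g replicate 1, followed by space_microg replicate 1. The junction cadherin CDH5 (-0.48 ± 0.19) and the second VEGF receptor FLT1 (-0.87 ± 0.41) overlapped.

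Notch signalling selects the leading cells of new vessels. Of its 28 measured genes, 4 had every flight value lower (14.3%, against 2.23% of all genes) and 0 higher. DLL4, the Notch ligand of sprouting tip cells and arteries, had 3.96, 2.60 and 4.13 scaled CPM in space_microg, 4.16 and 4.95 in space_1g and 6.55, 7.17 and 7.23 on the ground. The groups of this low gene were well separate, with a difference of -0.71 ± 0.20. MAML1, a co-activator, and NUMB, an inhibitor, had small differences of -0.15 ± 0.10 and -0.11 ± 0.10, and the ligand DLL1, under the level of 5, -0.62 ± 0.20. The median of the list was -0.17, or -0.12 without the libraries that stand apart and -0.09 without ground replicate 3 alone.

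Genes of the cytoskeleton and of cell shape had separate groups in both directions. TPM2, a tropomyosin of contractile filaments, had 24.4, 21.7 and 19.6 scaled CPM in space_microg, 20.1 and 28.1 in space_1g and 39.3, 40.3 and 34.9 on the ground, with a difference of -0.73 ± 0.15 and an adjusted p of 0.0227 in DESeq2. LLGL2, a polarity protein of the cell cortex, had 6.87, 6.86 and 10.4 scaled CPM in space_microg, 7.83 and 8.61 in space_1g and 16.3, 13.2 and 18.1 on the ground, with a difference of -0.89 ± 0.19. The gap between flight and ground values was 0.31 in TPM2 and 0.32 in LLGL2. RHOA, the GTPase that switches on contraction, MYL12A, a regulatory myosin light chain, and CAPZA1, which caps actin filaments, were higher, by 0.27 ± 0.12, 0.32 ± 0.13 and 0.28 ± 0.11. They made up 3 of the 49 measured actin genes, of which 1, TPM2, was lower and 31 had a higher mean (median 0.07, or 0.11 without the libraries that stand apart and -0.0010 without ground replicate 2). ACTB, cytoplasmic actin, differed by 0.03 ± 0.22.

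Heat shock chaperones, which refold damaged proteins, had a lower mean in flight in 28 of 31 measured genes, with a median of -0.30 and of -0.20 without the libraries that stand apart. The median was -0.49 without ground replicate 2 and -0.14 without ground replicate 3. Only HSPH1, a cofactor of HSP70, had separate groups (3.23% of the list, against 3.8% of all genes). It had 144, 129 and 123 scaled CPM in space_microg, 152 and 128 in space_1g and 272, 161 and 208 on the ground, with a difference of -0.63 ± 0.17. Flight values were close together and ground values were spread, the lowest, in replicate 2, lying near the flight libraries. AHSA1 and STIP1, which serve HSP90, differed by -0.52 ± 0.17 and -0.44 ± 0.14, with overlapping groups.

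Further genes with lower flight values came from sugar metabolism, signalling, transport and the lysosome. GALT, which converts galactose, had 24.1, 26.3 and 21.6 scaled CPM in space_microg, 25.2 and 25.9 in space_1g and 34.4, 36.6 and 39.0 on the ground, with a difference of -0.56 ± 0.13 and an adjusted p of 0.0169 in DESeq2. MTMR9LP, a transcribed pseudogene, had 9.73 to 10.1 in all 5 flight libraries against 14.2 to 19.8 on the ground, a difference of -0.72 ± 0.16. RGL3, a Ral exchange factor, differed by -0.73 ± 0.18, and EXOC3L1, a relative of an exocyst subunit, by -0.89 ± 0.21. CTSA, a lysosomal carboxypeptidase, differed by -0.34 ± 0.14 and was 1 of 2 separate genes among 47 of lysosome and autophagy, of which 37 had a lower mean (median -0.09, or -0.04 without the libraries that stand apart, -0.16 without ground replicate 2 and -0.0013 without ground replicate 3).

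RBM3 had the largest difference of the 612 genes (chrX:48574449-48579066). It had 311, 333 and 418 scaled CPM in space_microg, 156 and 253 in space_1g and 122, 132 and 73.5 on the ground. The lowest flight value, in space_1g replicate 1, was 156, above the highest ground value of 131.8. The mean was 294 ± 97.5 scaled CPM (SD, n = 5) in flight and 109 ± 31.2 (SD, n = 3) on the ground. The difference was 1.40 ± 0.31 (limma, unadjusted p = 0.00134), with an adjusted p of 0.0169 in DESeq2, and 1.35 without the libraries that stand apart. CIRBP, its closest relative and the other cold-inducible protein measured, had 82.0, 83.6 and 89.1 scaled CPM in space_microg, 80.5 and 71.6 in space_1g and 61.0, 80.9 and 68.8 on the ground. Its groups overlapped through ground replicate 2, and its difference was 0.21 ± 0.13.

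The promoter of RBM3 is shown for its CCAAT box, in capitals, 66 to 62 bases before the start. It is the 250 bases at chrX:48574234-48574483 of GRCh38.p14, plus strand, from RefSeq.
RBM3 promoter: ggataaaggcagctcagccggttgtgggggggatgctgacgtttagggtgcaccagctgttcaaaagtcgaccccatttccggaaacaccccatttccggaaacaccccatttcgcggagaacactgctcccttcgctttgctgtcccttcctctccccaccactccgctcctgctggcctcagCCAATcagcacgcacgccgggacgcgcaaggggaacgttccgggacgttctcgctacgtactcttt
The window held no match to the sterol element.

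Among signalling genes with higher flight values, PTP4A1, a membrane-bound phosphatase also called PRL-1 (chr6:63521746-63583377), had 127, 129 and 128 scaled CPM in space_microg, 162 and 138 in space_1g and 79.3, 87.7 and 96.5 on the ground. The lowest flight value was 127 and the highest ground value 96.5; the difference was 0.63 ± 0.13, with an adjusted p of 0.0186 in DESeq2. RASSF8, a scaffold at cell junctions, had 81.1, 90.1 and 79.7 scaled CPM in space_microg, 81.5 and 80.8 in space_1g and 58.7, 57.2 and 60.6 on the ground. The difference was 0.48 ± 0.10, with an adjusted p of 0.00475 in DESeq2. SORL1, a sorting receptor of endosomes, had 19.9, 19.8 and 25.7 scaled CPM in space_microg, 29.1 and 27.1 in space_1g and 13.6, 15.8 and 15.9 on the ground, with a difference of 0.64 ± 0.17. SLC36A4, a transporter of amino acids, had 33.1, 40.5 and 37.1 scaled CPM in space_microg, 25.7 and 35.5 in space_1g and 17.6, 23 and 15.5 on the ground, with a difference of 0.85 ± 0.19; it was the 1 separate gene among 21 amino acid transporters, whose median was -0.06, or -0.0060 without the libraries that stand apart and 0.11 without ground replicate 3 alone.

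Targets of p53, which is activated by damaged DNA, had a higher mean in flight in 30 of 33 measured genes. Only 2 of them had separate groups (6.06%, against 3.8% of all genes). The cells carry a viral large T antigen, and whether p53 itself was active was not tested. ZMAT3, an RNA-binding splicing regulator, had 110.1, 118 and 131 scaled CPM in space_microg, 147 and 112 in space_1g and 57.5, 78.9 and 88.4 on the ground, with a difference of 0.73 ± 0.17. CCNG1, cyclin G1, had 249, 323 and 342 scaled CPM in space_microg, 217 and 274 in space_1g and 157, 196 and 182 on the ground, with a difference of 0.64 ± 0.17. In both genes the groups did not overlap, with a wider gap in ZMAT3 than in CCNG1. CDKN1A, which stops the cell cycle (0.42 ± 0.63), and MDM2, which marks p53 for destruction (0.74 ± 0.46), overlapped widely. The list's mean scores were 0.98 in space_1g replicate 1 and 0.81 in ground replicate 3, the libraries that stand apart, and -0.68 to 0.14 elsewhere; its median was 0.25 with all libraries and 0.59 without those. Leaving out ground replicate 3 alone gave 0.75 and leaving out ground replicate 2 gave 0.0041, so the size of this median rested on single ground libraries.

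Synthesis of GPI anchors, the glycolipids that hold some proteins on the cell surface, had separate groups in 4 of 27 measured genes. This is 14.8%, against 3.8% of all genes, with 3 higher and 1 lower. PIGL, the deacetylase of the second step (chr17:16217191-16351797), had 13.8, 15.4 and 13.4 scaled CPM in space_microg, 14.0 and 15.7 in space_1g and 7.68, 8.77 and 5.55 on the ground. The lowest flight value was 13.4 and the highest ground value 8.77, the widest gap of the higher genes. The difference was 0.91 ± 0.17 (limma, unadjusted p = 0.000475), with an adjusted p of 0.00475 in DESeq2. PIGZ, which adds a mannose, differed by 0.57 ± 0.21 and was 0.33 without the libraries that stand apart. PGAP1, which trims the finished anchor, differed by 0.24 ± 0.13, and PIGO, an ethanolamine phosphate transferase, by -0.16 ± 0.12 (-0.07 without the libraries that stand apart). The whole list had a median of 0.04, or 0.15 without the libraries that stand apart, with 15 genes higher and 12 lower, and changed sign for space_1g against ground (-0.09).

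GSTZ1, an enzyme of tyrosine breakdown, had 17.8, 25.4 and 31.9 scaled CPM in space_microg, 15.4 and 24.5 in space_1g and 11.3, 12.8 and 11.9 on the ground, with a difference of 0.84 ± 0.23. Its ground values were tight and its flight values ranged widely. DTD1, which clears D-amino acids from transfer RNA, differed by 0.69 ± 0.19, and REEP2, which shapes the endoplasmic reticulum, by 0.66 ± 0.24. Among antisense and long non-coding RNAs, TRAM2-AS1 differed by 0.74 ± 0.20, WAC-AS1 by 0.73 ± 0.22 and LINC00324 by 0.70 ± 0.20. SGMS1-AS1, named for its DESeq2 call and after its values were seen, had a mean under 5, with 5.04 to 7.33 in flight and 2.44 to 3.16 on the ground, and so had CCDC113, a cilium protein (0.79 ± 0.18). Genes named as antisense made up 4.35% of the higher and 2.79% of the lower genes, against 1.82% of all genes. The labels do not give the strand setting of the counting, so reads of an antisense RNA and of its partner may be mixed; the partners TRAM2 (-0.27 ± 0.15) and WAC (-0.02 ± 0.11) overlapped.

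**Figure D3:**
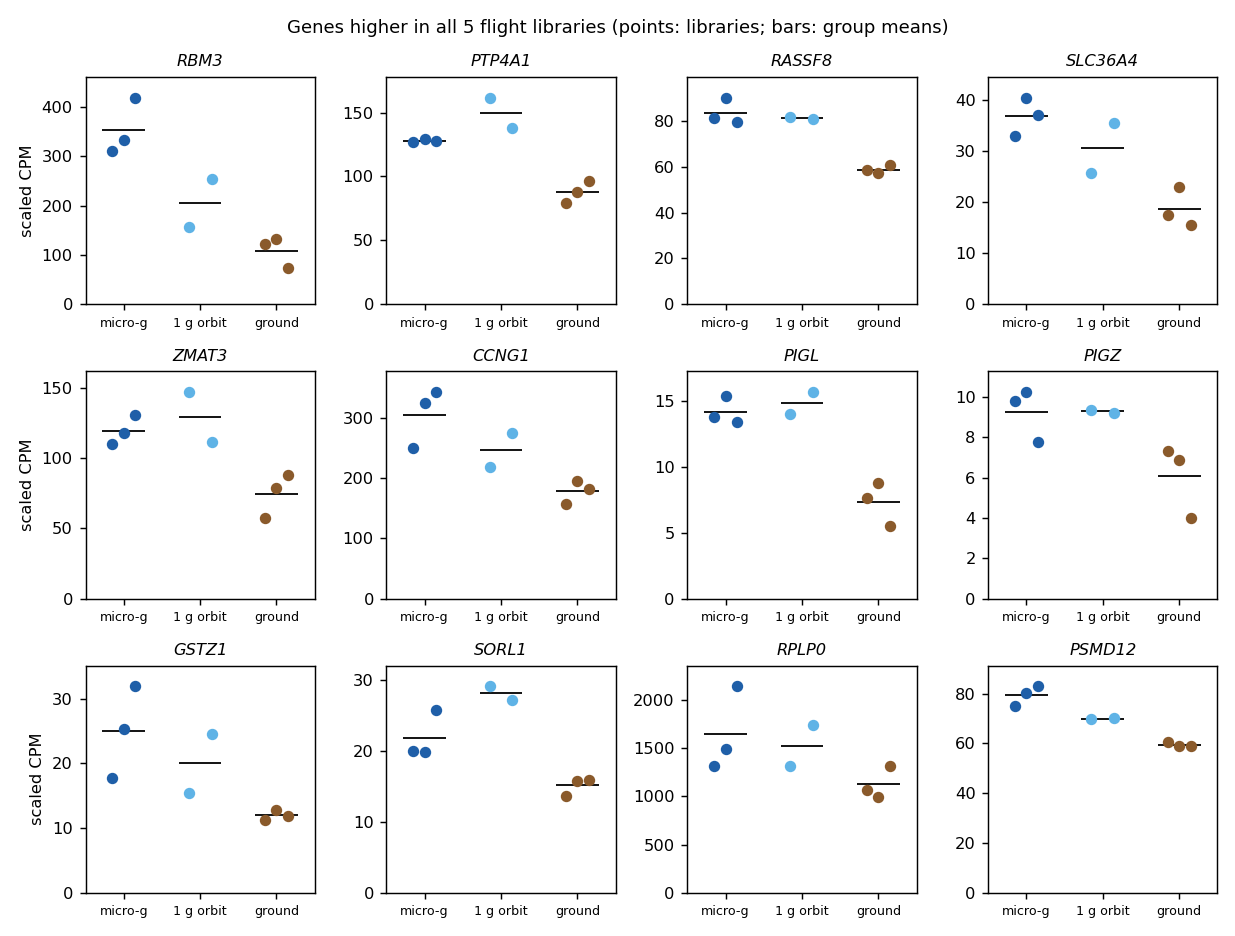
Scaled CPM (vertical, from 0) of 12 genes with every flight value higher, 1 panel per gene and 1 point per library, for space_microg (n = 3), space_1g (n = 2) and ground (n = 3), with bars at the group means. PIGL and PTP4A1 show a clear gap between flight and ground, RBM3 ranges from 156 in space_1g replicate 1 to 418 in space_microg replicate 3, and the lowest flight values of RPLP0 almost touch the highest ground value.

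Protein-making and protein-degrading machinery had many small differences of 1 sign and few separate genes. In the cytosolic ribosome 77 of 79 genes had a higher mean in flight (median 0.32, or 0.46 without the libraries that stand apart), yet only RPL10 (0.39 ± 0.16) and RPLP0 (0.49 ± 0.20) were separate (2.53%). Against the same ground libraries the ribosome median was 0.50 for space_microg and 0.08 for space_1g. The mean score of the ribosome list was 0.70 in space_microg replicate 3 and -0.34 to 0.17 in the other flight libraries. Near-identical copies leave the values of ribosomal protein genes uncertain. In the proteasome 33 of 35 genes had a higher mean (median 0.13, or 0.26 without the libraries that stand apart and 0.016 without ground replicate 2). PSMD12 (0.34 ± 0.11) and PSMC1 (0.28 ± 0.12) were separate (5.71%, against 3.8% of all genes). Of the NRF2 and oxidative stress genes, 31 of 36 had a higher mean (median 0.12, or 0.17 without the libraries that stand apart and 0.046 without ground replicate 2). MGST1 (0.39 ± 0.20), a glutathione transferase, and PRDX4 (0.28 ± 0.15), a peroxiredoxin, were separate (5.56%). Oxidative phosphorylation (68 of 75 genes higher, median 0.18, or 0.32 without the libraries that stand apart) and core histones (54 of 56 higher, median 0.24, or 0.38 without them) had 0 separate genes. For space_microg against ground the medians were 0.28 and 0.71, and for space_1g against the same ground 0.03 and -0.52. This split rested largely on single libraries. The mean score of oxidative phosphorylation was 0.50 in space_microg replicate 3 and -0.20 to 0.04 in the other flight libraries. That of the histones was -1.71 and 0.41 in space_1g replicates 1 and 2, and 0.36, 0.24 and 1.14 in space_microg. The histone median of flight against ground changed sign when either space_microg replicate 3 or ground replicate 3 was left out. The difference between the gravity levels was not tested for these lists. The interferon response (38 genes), chemokines and cytokines (21), the integrated stress response (32), immediate early genes (31), the circadian clock (20), hypoxia and glycolysis (36), TGF-beta and BMP signalling (28) and vasoactive genes (20) also had 0 genes with separate groups. For some of these lists the direction depended on the libraries used. The interferon median was -0.09 with all libraries (27 of 38 genes lower) and 0.37 without those that stand apart (36 of 38 higher), and went from -0.61 without ground replicate 2 to 0.78 without ground replicate 3. The median of the integrated stress response was 0.09 (22 of 32 higher), 0.42 without the libraries that stand apart (31 of 32 higher), -0.25 without ground replicate 2 and 0.70 without ground replicate 3. Medians of the other lists lay between -0.22 and 0.06, and between -0.23 and 0.19 without the libraries that stand apart.

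Growth and genome upkeep contributed single genes, in shares near the 3.8% of all genes. Separate groups were found in 1 of 44 mitosis genes (2.27%) and 2 of 45 of DNA replication (4.44%), all lower. In DNA repair 1 was higher and 1 lower of 48 (4.17%). The medians of the lists were 0.06, -0.03 and -0.05, and that of mitosis changed sign in 9 of 21 settings. FOXM1, a transcription factor of mitosis, differed by -0.28 ± 0.11, MCM10 and MCM3, which start DNA copying, by -0.28 ± 0.11 and -0.22 ± 0.13 (MCM3 by -0.12 without the libraries that stand apart), and OGG1, the glycosylase that removes oxidised guanine, by -0.35 ± 0.13. RNF8, a ubiquitin ligase at DNA breaks, was separate with a difference of only 0.09 ± 0.11. Of 37 histone lysine methyltransferases and demethylases, 3 had every flight value lower (8.11%): EHMT2 (-0.34 ± 0.14), which methylates histone H3 at lysine 9, PHF8 (-0.30 ± 0.12) and KDM2B (-0.22 ± 0.11). In the endoplasmic reticulum, CRELD1 was lower (-0.59 ± 0.17) and EDEM1, which leads misfolded glycoproteins to degradation, higher (0.25 ± 0.12).

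**Figure D4:**
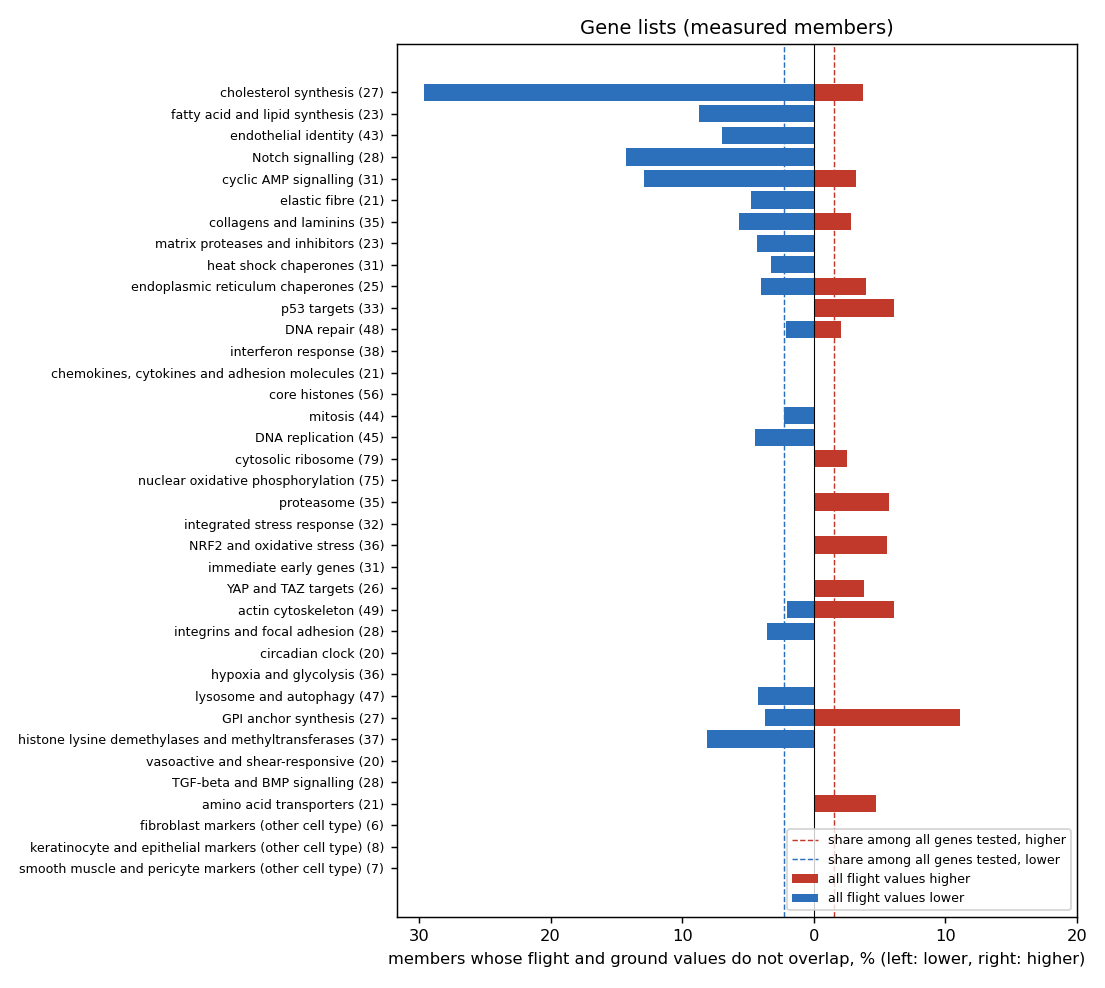
Share of measured members (horizontal, %) whose flight and ground values did not overlap, for each list with at least 5 measured members, whose number stands in brackets; blue bars to the left are genes with every flight value lower and red bars to the right genes with every flight value higher. Dashed lines mark the shares among all 16103 genes, 2.23% lower and 1.57% higher; sterol synthesis has 8 of 27 genes lower, and several lists have no bar.

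Within flight, the gravity levels could be compared over 3 and 2 libraries. Between space_microg and space_1g, limma called 0 of 16103 genes (0%) and had 212 at an unadjusted p under 0.05 (1.32%). Of the 612 genes, 4 were under that p (0.654%), with a smallest adjusted p of 0.912. The rule that chose the 612 genes placed both gravity levels on the same side of the same ground libraries, which by itself limits the differences between them, so nothing is read from this share. The 4 genes are named because they are few, after their values were seen. RBM3 was higher in weightlessness by 0.82 ± 0.30 and ENY2, a subunit of chromatin and export complexes, by 0.46 ± 0.17. The size for RBM3 leaned on space_1g replicate 1, at 156 scaled CPM. Space_1g replicate 2 had 253, against 311 to 418 in space_microg. C17orf107 had a difference of -0.94 ± 0.34 and the pseudogene FAM86FP of -0.73 ± 0.26, both through a high value in space_1g replicate 1. A p above the threshold does not show that the gravity levels acted alike. Against the same 3 ground libraries, with the direction fixed by the rule, differences in space_microg and space_1g can be set side by side. SREBF2 was at -0.38 and -0.35, ADCY4 at -1.16 and -0.97, PIGL at 0.88 and 0.95 and PTP4A1 at 0.54 and 0.76.

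**Figure D5:**
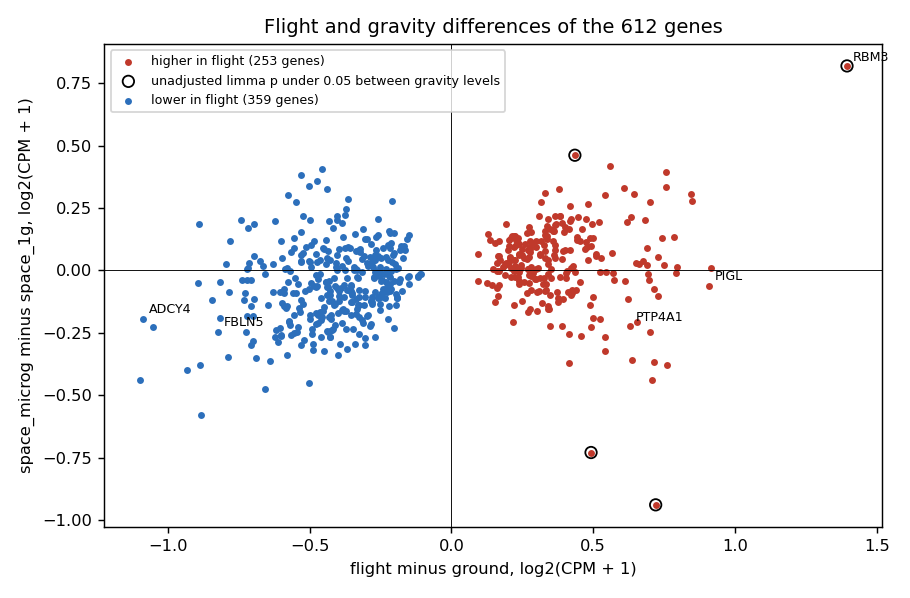
The difference between gravity levels within flight (vertical, space_microg minus space_1g) against flight minus ground (horizontal), both on the log2(CPM + 1) scale, for the 253 higher (red) and 359 lower (blue) genes, 1 point per gene; circles mark the 4 genes at an unadjusted limma p under 0.05 between the gravity levels. The choice of genes limits the vertical spread, and RBM3 lies highest to the right, at 0.82 and 1.40.

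The count of separate genes rested strongly on the libraries that stand apart. Without space_1g replicate 1 and ground replicate 3, which leaves 4 flight and 2 ground libraries and a lower bar for separation, 2265 of 15571 genes were higher (14.5%) and 2264 lower (14.5%). limma then called 10 genes (0.0642%) and had 2614 at an unadjusted p under 0.05 (16.8%). ADCY4, RBM3, TIMP3 and SCD were among the 10. CIRBP and all genes named above with separate groups other than C17orf107, 77 in all, kept their direction in every one of 26 alternative settings in which they were tested. For genes with separate groups, the rule itself fixes the direction in settings that only drop or reweight libraries. The same holds where only the pseudocount or the filter changes, so nothing is read from those settings.

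The higher and the lower genes also differed in base composition. Median GC content of the longest transcript was 43.1% in the higher genes, 52.9% in the lower and 48.4% in all genes, with a transcript found for 234, 307 and 13842 of them. Median transcript length was 3474, 3433 and 3496 bases. The mean deviation of the 20% of genes with the highest GC content, minus that of the 20% with the lowest, was -0.67 in space_microg replicate 2, -0.14 to 0.0019 in space_microg replicates 1 and 3 and space_1g replicate 2, and 0.54 in space_1g replicate 1; the ground libraries had -0.09, -0.22 and 0.67. Flight and ground overlapped in this measure. With the trend on GC content and length removed from each library, 112 of the 234 higher and 140 of the 307 lower genes still had separate groups. In that setting 273 genes were higher and 321 lower, so most of them had not been separate on that side before the removal. ADCY4 was then at -0.99, FBLN5 at -0.80, RBM3 at 1.35 and PIGL at 0.82.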

How the data were processed

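RNA-seq was measured in 8 libraries of HMEC-1 cells whose ribosomal RNA was depleted before stranded library preparation, per the labels' protocols. Per the submitters' processing notes, which give no roles, the tools were STAR 2.5.3, featureCounts, edgeR, FastQC and CASAVA 1.8.2 and the builds GRCh38 and hg38; the strand setting and annotation are not given in the sources used here. The deposited values, named CPM in the labels, are a signal for each gene: read counts scaled to library size times a factor per library, with column sums of 966156 to 1061177. In every library 100% of values were whole multiples of 1 read (tolerance 1e-06 read), so whole reads were recovered. For space_microg replicate 1, whose smallest value is 3 reads, the step came from the differences between values. A count of 0 allows up to 3 reads, a limit that covers counting error only. Pairs of libraries of a group differed far beyond counting noise, so none was counted as a duplicate.

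Genes with at least 1 scaled CPM in at least 2 libraries were kept (16103 of 16153; 50 were left out) and analysed as log2(value + 1). The planned test for CPM was kept for the scaled values: limma 3.58.1 (lmFit, eBayes with trend) in R 4.3.3, two-sided, flight against ground over all 8 libraries, with Benjamini-Hochberg adjustment at 0.05, and a fit of 3 groups for gravity. Alternatives were edgeR 4.0.16 (quasi-likelihood) and DESeq2 1.42.0 on the recovered reads, sva 3.50.0, other scalings, pseudocounts and filters, a block for the replicate number and leaving out single libraries. Removal of a trend on GC content and length was added after the data were seen. The fits were tested on simulated data.

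The members and gene lists were chosen with earlier results of these data known. Named genes had separate groups and a mean of at least 5 and were those called by limma, the 12 largest differences and 8 widest gaps per direction, and up to 4 separate members per list of at least 5 measured genes (without any, the member of smallest p); not every such gene is named, some are not reported here, and overlapping genes named for comparison were picked by role after their values were seen. GENCODE v29 on GRCh38 gave gene positions (13867 of 16153 symbols had 1 match) and RefSeq the promoters.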

Additional observations from a re-analysis of the deposited data

Results flagged for a closer look

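Of 5 flight values, 1 lay apart from the other 4 by more than Dixon's 95% critical value of 0.710 in the genes and list scores below. Chance alone would give this in about 1 in 20 of the 114 sets of values examined. Space_microg replicate 2 held the lowest MVD (24.0 scaled CPM against 34.2 to 39.3) and LAMB3 (10.0 against 12.6 to 13.2), and the highest RASSF8 (90.1 against 79.7 to 81.5). Space_1g replicate 1, which stands apart over all genes, held the highest TIMP3 (31.7 against 17.7 to 20.3), MGST1 (11.8 against 7.61 to 8.34) and EDEM1 (217 against 179 to 188), the lowest PIGO (45.0 against 51.2 to 53.5) and MCM3 (276 against 343 to 365), and the lowest mean score of the mitosis genes (-0.88 against 0.10 to 0.30). Space_microg replicate 3 held the lowest RGL3 (9.09 against 13.4 to 14.6), the highest PRDX4 (74.5 against 54.8 to 58.5) and the highest proteasome score (0.236 against -0.0097 to 0.03).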

How the results depend on the processing

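The number of genes with separate groups depended on which libraries were used, and fewer libraries per group also make separation easier. With 1 library left out, 290 to 1354 genes were higher and 422 to 1589 lower, with 304 to 1662 genes at an unadjusted p under 0.05 and 0 called in each; the extremes came without ground replicate 3 or space_1g replicate 1 on the high side. Without both, limma called 10 genes, with 2614 unadjusted and 2265 higher and 2264 lower. With space_microg and ground only, 1264 were higher, 1029 lower and 930 unadjusted, and with space_1g and ground only 767, 904 and 105. The call of 0 genes held in limma under the other scalings, pseudocounts and filters, and in edgeR; DESeq2 called 13. Array weights gave 3249 called and 5756 unadjusted, but gave ground replicate 1 a weight of 23.7 against 0.162 to 2 for the other libraries, so they compare flight mainly with 1 library. With 1 surrogate variable, 1992 genes were unadjusted. The replicate number as a block gave 0 called and 924 unadjusted for flight, and 850 unadjusted between gravity levels. Numbers did not pair the libraries (correlations of same-numbered libraries from -0.678 to 0.679). Between gravity levels, leaving 1 library out gave 30 to 2409 unadjusted genes. With other scalings 189 to 235 of the 253 higher and 259 to 356 of the 359 lower genes stayed separate. The effect of depth was not tested.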

Other observations

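Outside the 612 genes, the fit without space_1g replicate 1 and ground replicate 3 called 6 genes whose groups overlapped when all 8 libraries were used; they were chosen after their values were seen. CD34, a surface glycoprotein of endothelial and progenitor cells, differed by -1.15 ± 0.15 (SE, 4 flight and 2 ground libraries; limma adjusted p = 0.0406), PDK4, a kinase that slows pyruvate oxidation, by -1.35 ± 0.16 (limma adjusted p = 0.0406) and FLVCR2, a choline transporter of brain vessels, by -0.94 ± 0.12 (limma adjusted p = 0.0406). NRIP3 differed by 1.30 ± 0.14 (limma adjusted p = 0.0406), PSTPIP2, which binds membranes and actin, by 1.35 ± 0.18 (limma adjusted p = 0.0472) and CD180 by -1.78 ± 0.24 (limma adjusted p = 0.0472). In the fit of all 8 libraries the unadjusted p of these genes ranged from 0.0379 to 0.367.

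Along the genome, the shares of genes with separate groups varied. On chromosome 18, 11 of 195 genes were higher in flight (5.64%, against 1.57% of all genes) and 5 lower. On chromosome 16, 28 of 644 were lower (4.35%, against 2.23%) and 7 higher. On chromosome 15, 2 of 462 were higher (0.433%) and 13 lower. Neighbouring genes are not independent, and these shares were not tested.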
